A study of Mus musculus with 6 samples.

Results

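The replication-dependent histone genes encode the linker histone H1 and the core histones H2A, H2B, H3 and H4 that package newly made DNA. Gene rows with a symbol starting Hist1h, Hist2h, Hist3h or Hist4h were taken, 68 of the 24054 gene rows. Of these, the 59 with a sum of at least 30 sense counts over all libraries were the members examined here, and all 59 passed the filter on low counts. They comprised 6 H1, 14 H2a, 17 H2b, 10 H3 and 12 H4 genes. The member with the fewest counts was Hist2h2be with a sum of 97, and the rows left out all had a sum of 0.

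The data are RNA-seq libraries of mouse embryonic stem (ES) cells, pluripotent cells kept in culture without feeder cells in medium with serum and LIF. 3 libraries came from Morc3 ko clones (KO27-1, KO27-2 and KO27-3, here clones 1, 2 and 3), which per the methods are single-cell clones derived from wild-type cells with Cas9. The other 3 came from wild-type line WT26 and are called p42, p43 and p56 after their titles, where the meaning of the letter p was not given. Morc3 is an ATPase of the MORC family that the study examined as a factor silencing endogenous retroviruses. The labels do not say whether the wild-type libraries were grown at the same time as the clones, and p-values measure the spread among 3 clones and among 3 cultures of 1 line.

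Replication-dependent histone genes are transcribed mainly in S phase, when DNA is copied, under the control of NPAT at the histone locus body, a nuclear body that forms on the histone gene clusters. Their mRNAs mostly lack introns and, unlike other mRNAs, end in a conserved stem-loop instead of a poly(A) tail. The stem-loop is bound by SLBP, and the U7 snRNP, which contains LSM10 and LSM11, guides the cut behind it. The libraries were made from total RNA after removal of ribosomal RNA, without selection for poly(A), so that such mRNAs could be counted. The genes exist in many near-identical copies, and a read that fits several copies was not assigned to any gene.

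Sense gene counts came to between 10740618 and 14123131 per library, and 12222 genes were tested. Morc3 reached 77.8, 137.9 and 134.6 CPM (counts brought to equal library sizes with TMM scaling) in ko clones 1, 2 and 3, against 276.8, 272.0 and 302.2 CPM in the wild-type cultures p42, p43 and p56. The ES cell markers were present, with Pou5f1 at a mean of 1165 CPM in ko and 1135 CPM in wild type. Of 10 such markers, 7 were higher and 3 lower in ko, and 0 passed an adjusted p of 0.01 in the edgeR test. The largest change was that of Dppa5a, with a log2 fold change of ko over wild type of 0.43 (SE 0.088). Of 8 fibroblast markers, Dcn, Postn and Fap had no count in any library, and the summed level of the list was 5.30 to 5.64 CPM in ko and 8.62 to 9.59 CPM in wild type, mostly from Thy1. Thy1, the only marker of the list with enough counts to be tested, averaged 4.80 CPM in ko and 8.71 CPM in wild type. It was called, with an adjusted p of 0.0064 in the edgeR test. Col1a1, the next highest, averaged 0.48 CPM in ko and 0.31 CPM in wild type. The summed level of 10 markers of early differentiated cells was 3.80 to 4.62 CPM in ko and 4.97 to 5.65 CPM in wild type. Whether these traces bear on the histone genes was not tested.

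The stem-loop is the feature of these transcripts that lets them be made without a poly(A) tail, and the versions found among the members are shown here. The first 300 bases after the stop codon of the GENCODE transcript models (release M21, GRCm38) were searched for a stem of 6 positions around a loop of 4 bases. At least 5 positions had to pair, the stem had to start with GG and end with CC, and the loop had to start with TT. These letters, which all versions share, were thus set by the search. A stem-loop was found in 37 members, all with 6 of 6 pairs, and it began 21 to 54 bases after the stop codon, with a median of 31. For each of the 6 versions, the member with the highest level is given with 5 flanking bases on each side, the capitals mark both arms of the stem, and T stands for U of the RNA:
Hist1h1d: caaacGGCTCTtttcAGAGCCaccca
Hist1h4d: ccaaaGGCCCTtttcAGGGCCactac
Hist1h2bb: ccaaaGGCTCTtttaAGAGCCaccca
Hist1h4i: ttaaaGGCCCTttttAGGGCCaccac
Hist1h4b: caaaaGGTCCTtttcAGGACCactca
Hist2h2ac: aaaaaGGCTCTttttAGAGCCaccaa

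The version of Hist1h1d was found in 20 members of the H1, H2a, H2b and H3 classes and in no H4 gene. The versions of Hist1h4d, Hist1h4i and Hist1h4b, which differ from it in the stem, were found in 6, 2 and 2 members, all of them H4 genes. The version of Hist1h2bb, with a loop ending in a, was found in 6 members, 3 of them H3, 2 H2b and 1 H1. Hist2h2ac alone had the last version. No stem-loop was found for 22 members, and for 18 of these the transcript model ended within 50 bases of the stop codon or had no coding part. The other members without one were Hist1h3g, Hist1h2bc, Hist1h4a and Hist2h2be. A stem-loop outside the letters set by the search would have been missed. The median log2 fold change of ko over wild type was -0.02 for the 20 members with the Hist1h1d version, -0.09 for the 6 with the Hist1h4d version and -0.10 for the 6 with the Hist1h2bb version.

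The promoters are shown for 5 members that the results turn on, namely Hist1h1e and Hist3h2a, which had the highest and lowest log2 fold change, Hist2h2bb and Hist1h4d, which had the highest level per length of all core histone genes, and Hist1h4h, one of the H4 genes that were lower in every ko clone. The 120 bases before the transcription start were taken from RefSeq (GRCm38.p6) on the strand of the gene, and capitals mark TATAAA on that strand, and CCAAT, the octamer ATTTGCAT and the H1 box AAACACA on either strand:
Hist1h1e (chr13:23622559-23622678, minus strand): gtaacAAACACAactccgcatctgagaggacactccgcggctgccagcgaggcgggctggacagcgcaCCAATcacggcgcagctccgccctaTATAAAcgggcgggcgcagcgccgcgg
Hist3h2a (chr11:58954565-58954684, plus strand): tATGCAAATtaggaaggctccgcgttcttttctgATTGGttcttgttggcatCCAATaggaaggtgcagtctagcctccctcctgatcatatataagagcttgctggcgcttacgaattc
Hist2h2bb (chr3:96269580-96269699, plus strand): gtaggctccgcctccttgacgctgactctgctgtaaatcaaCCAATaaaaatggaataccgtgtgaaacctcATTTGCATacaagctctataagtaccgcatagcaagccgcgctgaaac
Hist1h4d (chr13:23581448-23581567, plus strand): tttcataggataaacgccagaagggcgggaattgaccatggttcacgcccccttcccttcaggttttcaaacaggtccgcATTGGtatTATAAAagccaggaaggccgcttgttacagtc
Hist1h4h (chr13:23530924-23531043, plus strand): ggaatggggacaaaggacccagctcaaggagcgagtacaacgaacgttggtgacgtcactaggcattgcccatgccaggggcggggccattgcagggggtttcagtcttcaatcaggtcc

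Promoter windows of 300 bases, from 250 before to 50 after the start, were found for 53 members. CCAAT, the letters bound by NF-Y, was in the window of 6 of 6 H1, 14 of 14 H2a, 14 of 14 H2b and 8 of 8 H3 members and of 3 of 11 H4 members (27.3%), against 37.9% of 27025 promoters of all genes. The octamer, the letters bound by POU2F1 (OCT1), was in the windows of 7 of 14 H2a and 6 of 14 H2b members and of no H1, H3 or H4 member, against 1.75% of all promoters. The H1 box was found in 5 of 6 H1 members, in 2 of 14 H2a and 2 of 14 H2b members and in no H3 or H4 member, against 7.14% of all promoters. TATAAA was found in 4 of 6 H1, 9 of 14 H2a, 4 of 14 H2b, 4 of 8 H3 and 7 of 11 H4 members, against 8.88% of all promoters. In 23 members it lay before the start, and the nearest copy began 10 to 250 bases upstream, with a median of 33. It began 25 to 40 bases upstream in 12 of these members. In the other members with TATAAA, it overlapped or followed the start. H2a and H2b genes that share 1 window region, as the divergent pairs below do, are not independent examples of a motif. Hist3h2a held the octamer and CCAAT on both strands in the stretch shown, whereas Hist1h4h held none of the 4 motifs there.

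The members lie in 4 loci. On chromosome 13 of GRCm38, the Hist1 locus holds 23 rows between 21715711 and 22043658, of which 18 were members, and 31 rows between 23531044 and 23934913, all of them members. The Hist2 locus on chromosome 3 (96219885 to 96270192) holds 10 rows and 6 members, the Hist3 locus on chromosome 11 (58948911 to 58955192) holds 3 members, and Hist4h4 on chromosome 6 (136803993 to 136804431) stands alone. RefSeq lists all 68 rows under newer symbols, and they were matched by their older ones.

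How far a member can be counted depends on the sequence it shares with other copies. The longest transcript model of each row was therefore cut, within the RefSeq span, into windows of 50 bases, the read length. The share of windows that no other GENCODE gene contains was computed, leaving aside genes that overlap the row in position. Any window shared with an overlapping gene, such as Gm42743 at Hist2h2bb or Trim17 at Hist3h2a, thus counted as unique. Single windows also take no account of the pairing of reads, so that the share is only a guide. The unique share was 100% for 6 members, among them Hist1h1a, Hist1h1b, Hist2h2bb, Hist2h2be and Hist4h4, and had a median of 47.7% over the members. The lowest share among members was 6.08% for Hist1h3h, which shares most windows with Hist1h3i. The 9 rows without a count had shares of 0 to 11.5%. They were Hist1h2ao, Hist1h2ap, Hist1h2bq, Hist1h2br, Hist1h4m, Hist2h2aa1, Hist2h2aa2, Hist2h3c1 and Hist2h3c2. A low share did not by itself leave a gene without counts: Hist1h4n had 8.43% unique windows and 27681 counts, whereas its near-copy Hist1h4m had 10.2% and 0 counts. Over the 59 members, Spearman's rho between unique share and mean level was 0.17, given as a description since copies share reads. The 9 members under 20% had a median of 152 CPM and the 50 others of 248 CPM. Levels and fold changes of all members rest on the reads that could be assigned to 1 copy.

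**Figure D1:**
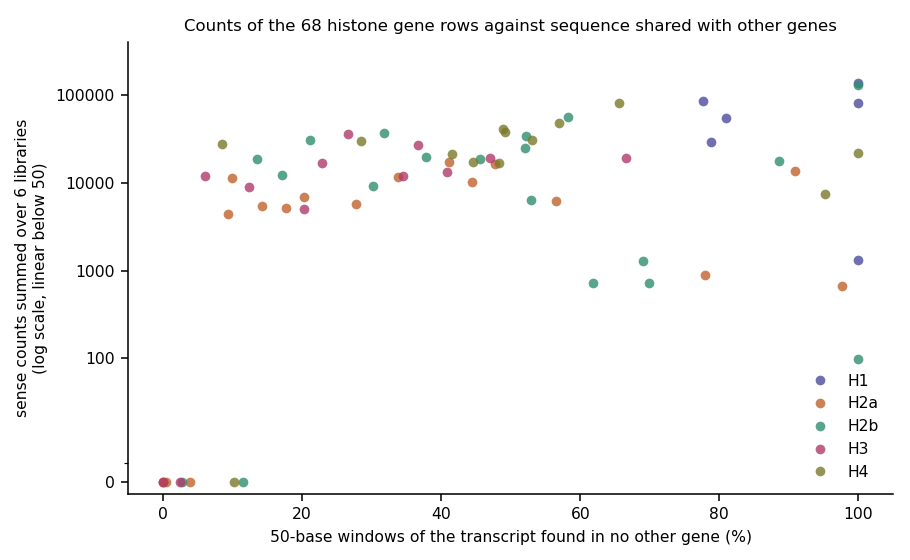
Sense counts summed over the 6 libraries (y axis, log scale and linear below 50) against the percent of 50-base windows found in no other gene (x axis) for the 68 histone gene rows, coloured by class. Genes that overlap a row in position were left aside. The 9 rows at a count of 0 all lie at or below 11.5% unique windows, while Hist1h4n at 8.43% has 27681 counts.

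Histone transcripts were abundant in ES cells. The members took 2.15%, 1.85% and 1.87% of all sense gene counts in ko clones 1, 2 and 3, and 2.03%, 2.00% and 2.07% in the wild-type cultures p42, p43 and p56. The clones averaged 1.96% ± 0.17 and the wild-type cultures 2.03% ± 0.034 (SD, n = 3 each), a ratio of 0.96. The wild-type values lay between those of the ko clones, so that the groups overlapped and their difference was smaller than the spread between clones. In bulk libraries, fewer cells in S phase and less histone mRNA per cell cannot be told apart. Of the summed CPM of the members, 51.2% came from 10 genes and 72.0% from 20.

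The linker histone genes were among the highest. Hist1h1a averaged 1833 ± 82.8 CPM in the clones and 1880 ± 57.8 CPM in the wild-type cultures (SD, n = 3 each). On the scale of CPM per kb of gene length, over all 6 libraries, Hist1h1a reached 2492, Hist1h1d 1489, Hist1h1b 1379, Hist1h1c 1020 and Hist1h1e 516. The testis-specific linker histone gene Hist1h1t, described after its values were seen, reached 24.5 CPM per kb. Hist1h1a, Hist1h1d and Hist1h1b together made up 78.0% of the CPM of the class.

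Among the core histones, H4 genes had the highest typical level, with a median of 947 CPM per kb over 12 members, followed by H2b with 399 over 17, H3 with 345 over 10 and H2a with 181 over 14. The highest of all was Hist2h2bb with 3619 CPM per kb, although no stem-loop was found in its short transcript model, and GENCODE places the transcript Gm42743 over it on the same strand. The highest H4 genes were Hist1h4d with 2744, Hist1h4f with 1680 and Hist1h4a with 1222 CPM per kb, and the next H2b genes were Hist1h2bb with 1560 and Hist1h2bg with 1077 CPM per kb. The highest H3 gene was Hist1h3c with 766, ahead of Hist1h3e with 527 and Hist1h3a with 512 CPM per kb. This order rests on lengths of 480 bases for Hist1h3c and 911 for Hist1h3e. Hist1h3e had the higher mean level, 480 against 368 CPM, and the higher value per kb of coding sequence, 1177 against 902. The highest H2a gene was Hist1h2ab with 458, ahead of Hist1h2ak with 419 and Hist3h2a with 356 CPM per kb. Within a class, the highest and lowest member differed 5.74-fold for H3, 10.5-fold for H4 and 24.3-fold for H2a. For H2b the difference was 7166-fold, between Hist2h2bb and Hist2h2be, which had only 97 counts in all. Levels depend on the gene length, which was the RefSeq span or, for genes spanning 1000 bases or more, all GENCODE exons. The value of Hist1h2be, 54.4 CPM per kb, rests on exons of 4446 bases and would be 639 per kb of coding sequence. The H2b median of 399 is the value of Hist1h2bc. It rests on exons of 1156 bases and would be 1221 per kb of coding sequence.

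**Figure D2:**
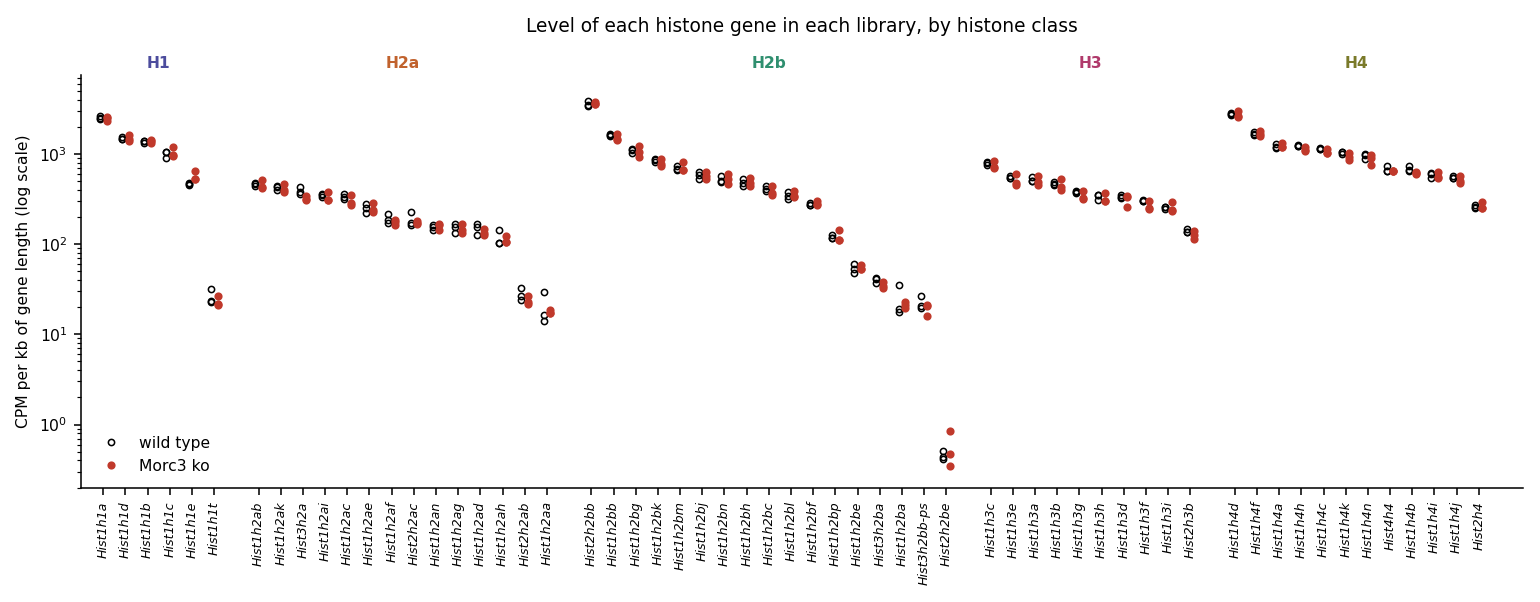
CPM per kb of gene length on a log axis for the 59 members, ordered by level within each histone class. Each member has 3 open points for the wild-type libraries and 3 filled points for the ko clones, which lie close together compared with the range from 0.51 for Hist2h2be to 3619 for Hist2h2bb.

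H2a and H2b genes mostly sit in divergent pairs that start within 1000 bases of each other. There were 13 such pairs, with 164 to 281 bases between the starts, and both genes were members in 11 of them. The H2b gene had the higher CPM in 9 of the 11 pairs, and the median ratio of H2b to H2a was 1.16. Hist1h2bk reached 6.90 times the CPM of Hist1h2ah, and the unique share was 21.1% for the first and 9.27% for the second, so that lost reads and level cannot be told apart. The exceptions were the Hist3 pair, where the pseudogene Hist3h2bb-ps had 0.054 times the CPM of Hist3h2a, and the Hist2 pair, where Hist2h2be had 0.016 times that of Hist2h2ac. The unique share of the H2b and H2a gene was 70.0% and 90.9% in the Hist3 pair and 100% and 56.6% in the Hist2 pair. These orders rest on mean CPM, which takes no account of gene length, and were not tested. Per kb of gene length, Hist1h2bp had 121 CPM and Hist1h2an 156, the reverse of their order in CPM, and the other pairs kept their order.

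To see whether Morc3 ko changed any of these genes, ko and wild-type libraries were compared with the quasi-likelihood test of edgeR over all 12222 genes. No member passed an adjusted p of 0.01, where 1.28% of all tested genes did (156 genes), and the smallest adjusted p among members was 0.088. At an unadjusted p under 0.05, 5 of 59 members differed, against 14.3% of all tested genes. Of these, 4 were lower in ko, against 7.86% of all genes, and 1 was higher, against 6.42%. By both DESeq2 and edgeR, 0 members were called, and DESeq2 gave 4 members at an unadjusted p under 0.05, where it gave 7.73% of all genes it tested. The median log2 fold change of the members was -0.051, with 41 lower and 18 higher in ko. The median over all tested genes was -0.00010, a value that the TMM scaling keeps near 0. The log2 fold change was within 0.2 of 0 for 53 members and within 0.1 for 37.

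These comparisons were precise for most members. The SE of the log2 fold change had a median of 0.082 and ranged from 0.055 to 0.35, and 54 of 59 members had more than 1000 counts in all. For 54 members, the 95% interval of the fold change lay within 0.5 of 0 on the log2 scale. The remaining 5 were Hist3h2bb-ps, Hist1h2ba, Hist1h2aa, Hist2h2ab and Hist2h2be, each with fewer than 1000 counts in all, and the interval of Hist2h2be reached 1.05. For Hist1h2ba and Hist1h2aa, the wild-type cultures also differed, with p56 the highest. Their SD of log2 CPM was 0.53 and 0.55 between wild-type cultures, against 0.098 and 0.052 between clones. Hist2h2be itself had 2.22, 1.24 and 0.91 CPM in clones 1, 2 and 3 and 1.09, 1.33 and 1.16 CPM in p42, p43 and p56. The groups overlapped for this gene.

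**Figure D3:**
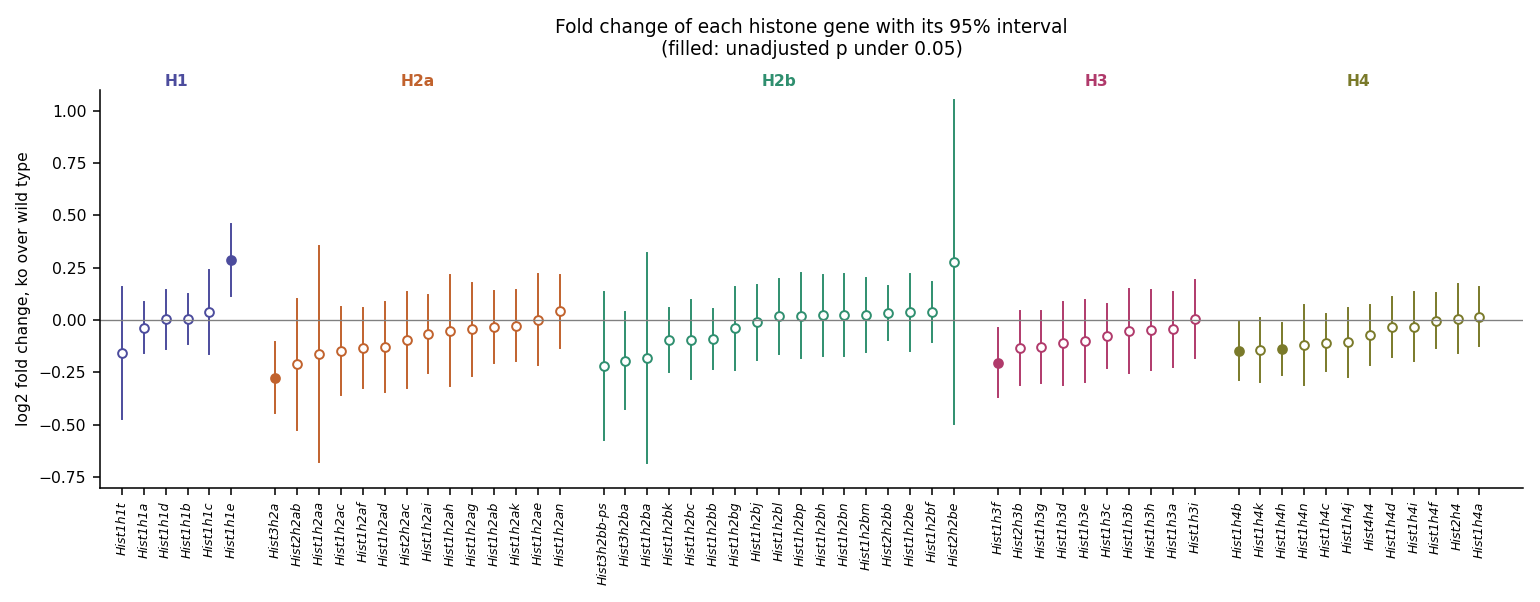
Fitted log2 fold change of ko over wild type (points) with its 95% interval (lines) for the 59 members, ordered within each histone class, with filled points for an unadjusted p under 0.05. Most points of the H2a, H3 and H4 classes lie just below 0, Hist1h1e at 0.29 is the only filled point above it, and none was called at an adjusted p under 0.01.

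Hist1h1e, which encodes the linker histone variant H1.4, had the highest log2 fold change of the members. Its level was 506, 409 and 417 CPM in clones 1, 2 and 3 and 372, 355 and 363 CPM in cultures p42, p43 and p56. Every clone was above every wild-type culture, clone 1 by the widest margin. The log2 fold change was 0.29 (SE 0.079, 95% interval 0.12 to 0.46), and the adjusted p in the edgeR test was 0.088, with 0.026 to 0.21 over the alternatives. Hist1h1e (chromosome 13, 23621777 to 23622558, minus strand) overlaps a long GENCODE model of Hist1h2be on the same strand. Hist1h2be had a log2 fold change of 0.04 (SE 0.084). The other somatic linker histone genes had log2 fold changes of -0.04 (SE 0.056) for Hist1h1a, 0.0043 (SE 0.055) for Hist1h1b, 0.04 (SE 0.092) for Hist1h1c and 0.0043 (SE 0.064) for Hist1h1d. Their ko and wild-type values overlapped.

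Hist3h2a, an H2A gene of the small Hist3 locus, had the lowest log2 fold change. Its level was 175, 160 and 157 CPM in clones 1, 2 and 3 and 190, 184 and 220 CPM in cultures p42, p43 and p56. All clones were below all wild-type cultures, and p56 was the highest. The log2 fold change was -0.28 (SE 0.078, 95% interval -0.45 to -0.10), and the adjusted p in the edgeR test was 0.10, with 0.046 to 0.42 over the alternatives. Its neighbours Hist3h2ba and Hist3h2bb-ps also had values below 0, with -0.19 (SE 0.11) and -0.22 (SE 0.16) on the log2 scale, and their groups overlapped. In GENCODE, Trim17 overlaps Hist3h2a on the same strand.

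The remaining members with an unadjusted p under 0.05 were an H3 gene and a pair of H4 genes of the Hist1 locus. Hist1h3f reached 269, 221 and 228 CPM in clones 1, 2 and 3 and 269.6, 281 and 275 CPM in p42, p43 and p56, with a log2 fold change of -0.20 (SE 0.076). Clone 1 was just below the lowest wild-type culture. Hist1h4h reached 514, 476 and 474 CPM in the clones and 534, 533 and 545 CPM in wild type, with a log2 fold change of -0.14 (SE 0.057). Hist1h4b reached 268, 276 and 282 CPM in the clones and 295, 292 and 329 CPM in wild type, with a log2 fold change of -0.15 (SE 0.064). Their adjusted p values were 0.23, 0.28 and 0.31 in the edgeR test. These 3 genes, with Hist3h2a and Hist1h1e, were the 5 members whose groups did not overlap, against 19.9% of all tested genes. All clones were below all wild-type cultures for 4 of 59 members, against 10.2% of all genes, and above for 1 of 59, against 9.67%.

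**Figure D4:**
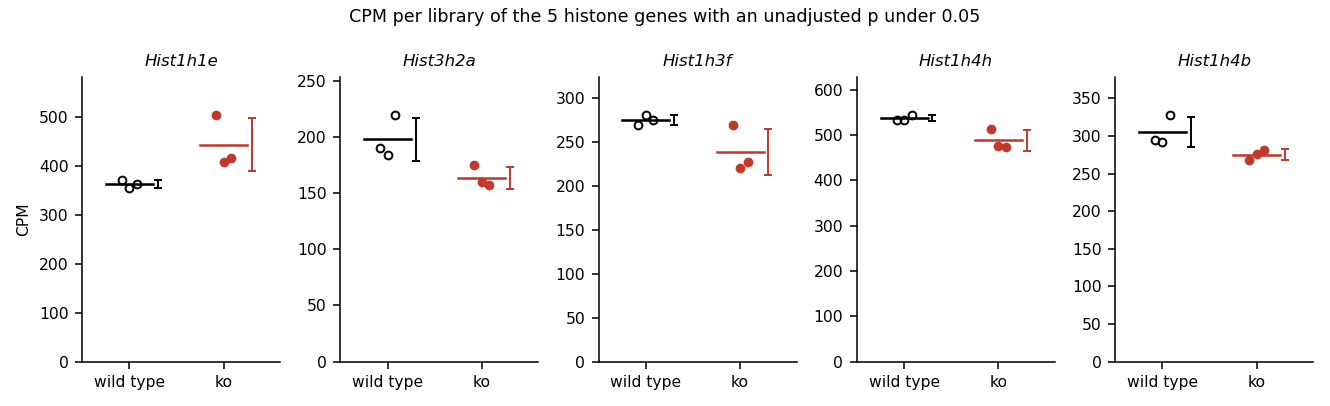
CPM in each library (points) for the 5 members with an unadjusted p under 0.05, with the mean (horizontal line) and SD (bar) of 3 wild-type libraries and 3 ko clones, on axes that start at 0. In each panel the values of the groups do not overlap, but for Hist1h3f clone 1 (269.2 CPM) nearly meets p42 (269.6 CPM). The clones are higher for Hist1h1e only, and clone 1 is the highest clone in every panel except that of Hist1h4b.

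By class, 12 of 14 H2a, 9 of 10 H3 and 10 of 12 H4 members had a log2 fold change below 0, with medians of -0.08, -0.09 and -0.09. For H2b, 8 of 17 were below 0 with a median of 0.02, and for H1, 2 of 6 with a median of 0.0043. In the 11 divergent pairs with both genes counted, 9 H2a and 6 H2b genes had a log2 fold change below 0. The summed level of the H1 genes was 5297 ± 337 CPM in the clones and 5239 ± 64.6 CPM in the wild-type cultures (SD, n = 3 each). That of the H3 genes was 2211 ± 266 CPM in the clones and 2354 ± 36.8 CPM in the wild-type cultures (SD, n = 3 each). For H2a the sums were 1516 ± 141 and 1608 ± 132 CPM, for H2b 5658 ± 358 and 5715 ± 324 CPM, and for H4 5025 ± 310 and 5261 ± 113 CPM (SD, n = 3 each, clones before wild-type cultures). In each class the difference between the groups was smaller than the SD between clones.

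By locus, the 31 members at the higher coordinates of the Hist1 locus had a median log2 fold change of -0.08 and the 18 at the lower coordinates of -0.03. The 6 members of the Hist2 locus had a median of -0.04, from -0.21 for Hist2h2ab to 0.28 for Hist2h2be. Hist2h2bb had a log2 fold change of 0.03 (SE 0.059), Hist2h2ac of -0.10 (SE 0.11), Hist2h3b of -0.13 (SE 0.082) and Hist2h4 of 0.0068 (SE 0.076). Hist4h4 had -0.07 (SE 0.065), with 285, 285 and 283 CPM in clones 1, 2 and 3 and 284, 287 and 326 CPM in p42, p43 and p56. For this gene p56 stood above the other libraries, which lay close together.

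Within both groups, the members differed from library to library. Relative to the wild-type mean, the members had a median log2 ratio of 0.089, -0.14 and -0.11 in ko clones 1, 2 and 3 and -0.0092, -0.056 and 0.068 in the wild-type cultures p42, p43 and p56. Over all tested genes this median was within 0.0020 of 0 in every library, which largely follows from the TMM scaling over these genes. Clone 1 had the highest CPM of the clones for 52 of 59 members (88.1%), where it was highest for 39.2% of all tested genes. Wild-type p56 had the highest CPM of the wild-type cultures for 42 of 59 members (71.2%), where it was highest for 41.1% of all tested genes. Genes of 1 pathway are not independent, and these shares are given without a test. The SD of log2 CPM between clones had a median of 0.13 over the members and 0.11 over all tested genes, and between wild-type cultures of 0.082 over the members and 0.12 over all genes.

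**Figure D5:**
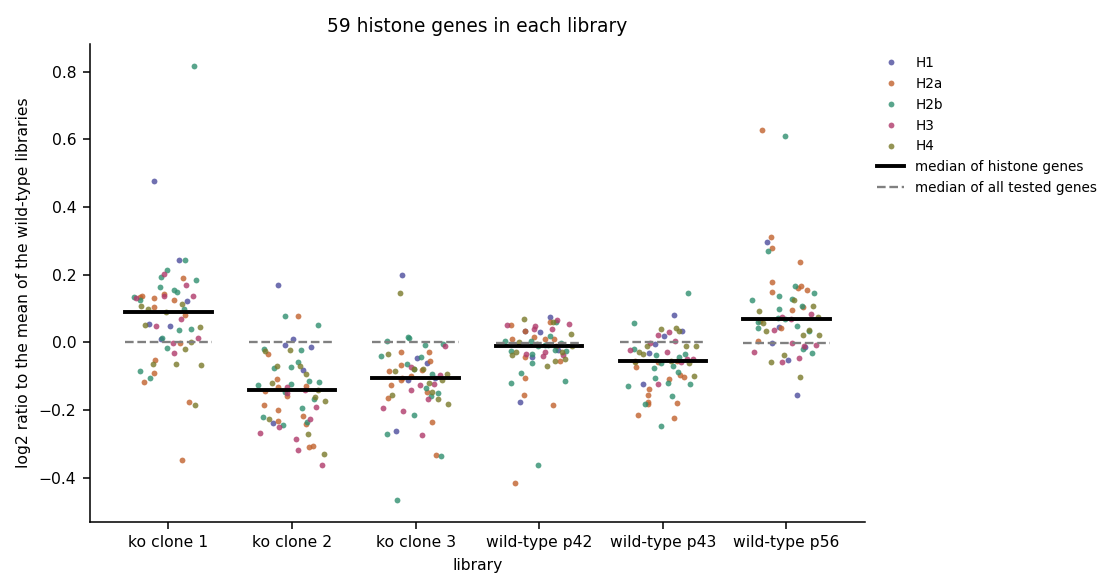
Log2 ratio of each of the 59 members over the wild-type mean (3 libraries; points, coloured by class) in each library, with the median of the members (black line) and of all tested genes (dashed line). The members lie mostly above 0 in ko clone 1 (median 0.089) and wild-type p56 (0.068) and mostly below it in ko clones 2 (-0.14) and 3 (-0.11).

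The comparison depended on clone 1. Without it, 18 members had an unadjusted p under 0.05, 17 of them lower in ko, 55 of 59 had a log2 fold change below 0 and the median was -0.14, although still no member was called. The smallest adjusted p was then 0.041 for Hist1h3f in the edgeR test. Without clone 2 or clone 3, the median was 0.00090 or -0.02 and 2 members had an unadjusted p under 0.05. The share of all tested genes with an unadjusted p under 0.05 was 16.4% without clone 1, 9.75% without clone 2 and 9.61% without clone 3.

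In wild-type p56, a pair of members stood out, which was chosen after its values were seen. Hist1h2aa and Hist1h2ba, a divergent pair that encodes the H2A and H2B variants of the male germ line, reached 14.1 and 15.2 CPM in p56. In p42 and p43 they reached 6.74 and 7.77 CPM for Hist1h2aa and 7.68 and 8.33 CPM for Hist1h2ba, and in the clones between 8.26 and 9.79 CPM for both. The difference between p56 and the mean of p42 and p43 on the log2 scale was 0.94 for Hist1h2aa and 0.91 for Hist1h2ba, against a median of 0.10 over the members. The next largest differences were 0.47 for Hist1h2ah, 0.45 for the testis-specific Hist1h1t, 0.42 for Hist2h2ac, 0.41 for Hist3h2bb-ps and 0.36 for Hist2h2ab. The comparison rests on 1 culture and has no replicate.

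The genes that act on histone genes and histone mRNA were examined as a list of 40 tested genes covering the histone locus body, transcription and 3' end processing. None was called, and the median log2 fold change was 0.03. At an unadjusted p under 0.05 there were 5 of 40, all higher in ko, where 14.3% of all tested genes passed and 6.42% passed and were higher. The largest change of the list, named after its values were seen, was that of Pou2f1, an octamer-binding transcription factor, with 91.4, 86.2 and 96.9 CPM in clones 1, 2 and 3 and 79.2, 78.1 and 55.4 CPM in p42, p43 and p56. All clones were above all wild-type cultures, p56 was the lowest, the log2 fold change was 0.37 (SE 0.12), and edgeR gave an adjusted p of 0.16. Npat, the coactivator of histone genes in S phase, had a log2 fold change of 0.09 (SE 0.065) and Casp8ap2, its partner in the histone locus body, of 0.04 (SE 0.066). Hinfp, which binds H4 promoters, had 0.04 (SE 0.095). Slbp, which binds the stem-loop, reached 202, 220 and 219 CPM in clones 1, 2 and 3 and 208, 208 and 253 CPM in p42, p43 and p56, with a log2 fold change of -0.06 (SE 0.082). Clone 1 had the least Slbp of the clones and p56 the most of all libraries. Lsm10 and Lsm11 of the U7 snRNP had 0.06 (SE 0.11) and 0.02 (SE 0.14), and Eri1, an exonuclease that trims and degrades histone mRNA ends, had -0.0099 (SE 0.070). Zfp473, which binds the U7 snRNP, reached 87.5, 90.6 and 85.6 CPM in the clones and 75.2, 73.0 and 75.3 CPM in wild type. The clones were all above the wild-type cultures for Zfp473, with a fitted log2 change of 0.24 (SE 0.063), and edgeR gave an adjusted p of 0.074.

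Of 11 tested replication-independent histone variant genes, which are also transcribed outside S phase, 1 was called, against 1.28% of all tested genes. At an unadjusted p under 0.05 there were 2 of 11, both lower in ko, where 14.3% of all tested genes passed and 7.86% passed and were lower. H2afy2, which encodes macroH2A2, a variant found in inactive chromatin, fell in ko. It reached 21.6, 18.4 and 19.6 CPM in clones 1, 2 and 3 and 29.3, 34.0 and 35.1 CPM in p42, p43 and p56. The clones were all below the wild-type cultures, with a fitted log2 change of -0.72 (SE 0.10), and edgeR gave an adjusted p of 0.0023. H2afy2 was not called without clone 2 or without clone 3. The other gene at an unadjusted p under 0.05 was H2afy. It reached 150, 144 and 132 CPM in clones 1, 2 and 3 and 165, 164 and 162 CPM in p42, p43 and p56. Its log2 fold change was -0.21 (SE 0.065), and edgeR gave an adjusted p of 0.15. The median log2 fold change of these 11 genes was -0.0069, and 4 were higher and 7 lower in ko.

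Genes of histone supply and of the cell cycle were examined beside the members. Over all tested genes, 14.3% had an unadjusted p under 0.05, and 6108 of 12222 had a log2 fold change above 0. Of 28 histone chaperone and chromatin assembly genes, none was called, 4 had an unadjusted p under 0.05 and the median log2 fold change was 0.05. Of these 4, 2 were higher and 2 lower in ko. The smallest adjusted p of the list in the edgeR test was 0.047, for Atrx, with a log2 fold change of 0.31 (SE 0.073). Of 35 genes of S phase and DNA replication, none was called, 1 had an unadjusted p under 0.05 and the median was -0.0040. Of 25 genes of G2 and mitosis, none was called, 3 had an unadjusted p under 0.05 and 23 had a log2 fold change above 0, with a median of 0.05. By library, the median log2 ratio of the S phase list to the wild-type mean was -0.056, 0.04 and 0.03 in clones 1, 2 and 3 and -0.07, -0.06 and 0.13 in p42, p43 and p56. Both the S phase list and the histone members were highest in p56 among the wild-type cultures, whereas in clone 1 the S phase list was lowest and the members were highest among the clones. What part the cell cycle has in the library differences was not tested.

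Other RNAs without a poly(A) tail were set beside the members, because both would be largely lost with poly(A) selection. Of 15 tested RNAs of this kind, such as the RNA components of RNase MRP, RNase P and telomerase and several small Cajal body RNAs, none was called, 1 had an unadjusted p under 0.05 and the median log2 fold change was 0.0025. Their median log2 ratio to the wild-type mean was 0.18, 0.11 and -0.13 in clones 1, 2 and 3 and -0.04, 0.06 and -0.09 in p42, p43 and p56. Clone 1 was the highest clone for both groups, whereas clone 2 was above the wild-type mean for these RNAs and below it for the histone members. Whether the recovery of short RNAs differed between the libraries was not tested.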

How the data were processed

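RNA-seq covered 3 ko clones and 3 wild-type cultures of ES cells. Total RNA was freed of ribosomal RNA and sequenced as strand-specific paired-end reads. The authors aligned the reads to mm10 with STAR, per the labels, and deposited raw counts per gene, 1 file per library, without normalization. STAR counts only reads that map to 1 place and 1 gene. The sources used here did not name the gene annotation. Of the 3 count columns, column 4 (sense strand) was used, and column 3 for opposite-strand counts. Reads that were unmapped (6.87% to 7.82%), multi-mapping (16.3% to 17.4%), outside genes (11.2% to 13.1%) or ambiguous (0.47% to 0.49%) stayed out of library sizes. Sense gene counts of 10740618 to 14123131 per library set the precision.

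Counts were tested with edgeR 4.0.16 (quasi-likelihood test, R 4.3.3) with TMM scaling, filterByExpr (minimum count 10, minimum total 15), the group as only term, a prior count of 0.125 and two-sided Benjamini-Hochberg adjustment over all 12222 genes, and called at an adjusted p under 0.01, the threshold of the study. SE is the log2 fold change divided by the square root of F, and 95% intervals use the t quantile at edgeR's total degrees of freedom. The fit was tested on simulated data. Alternatives were DESeq2 1.42.0, other scalings, no filter, counts that ignore strand, a robust fit, an adjusted p under 0.05 and leaving out each library. The members and gene lists were chosen with earlier results of these data known. Named members are those called, the 10 with the smallest p, the somatic H1 genes, the 3 highest per length of each class, the Hist2, Hist3 and Hist4 loci and the extremes; named list genes are those called and Slbp, Npat, Casp8ap2, Lsm10, Lsm11, Hinfp, Eri1 and Zfp473. Other genes were named after their values were seen.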

Additional observations from a re-analysis of the deposited data

Results flagged for a closer look

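The counts on the strand opposite to the histone genes entered no comparison above. They amounted to 0.086% to 0.15% of all counts of the members in a library, and 14 members had 30 or more of them over the 6 libraries. For 3 of these 14 members (21.4%), every ko clone was above every wild-type culture when opposite-strand counts were scaled to CPM by the opposite-strand total of each library, as was the case for 6.26% of the 2286 genes with at least 30 such counts. The mean was 122 CPM in ko and 76.6 in wild type for Hist1h1d, from 52 and 39 counts. It was 119 and 60.8 CPM for Hist1h1a, from 51 and 31 counts. For Hist2h2ab, where opposite-strand reads made up 13.7% of all its counts and GENCODE places Gm15444 on the other strand, it was 166.5 and 142 CPM, from 71 and 72 counts. The source of these reads was not tested.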

How the results depend on the processing

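Of the histone members, 0 were called at an adjusted p under 0.01 by edgeR or under any of the 13 alternative fits, and 0 among the 50 with at least 20% unique windows (a choice made after seeing the data). At an adjusted p under 0.05, the reported edgeR fit again called 0, whereas with all libraries the adjusted p of Hist1h1e was 0.028 by DESeq2 and 0.036 without the filter. The number of members at an unadjusted p under 0.05 was 5 and ranged from 2 to 18 when 1 library was left out. Their median log2 fold change then ranged from -0.138 to 0.0009, and the ko share over the wild-type share from 0.916 to 0.988. Of 403 values of the 31 named members under other fits, 32 had the other sign, all for members that were not called. Over all genes, 156 were called, against 254 by DESeq2, 286 without the filter, 331 at an adjusted p under 0.05 and 72 to 385 with 1 library left out. Of the pathway genes, 1 was called, against 2 by DESeq2, 2 at an adjusted p under 0.05 and 0 to 4 with 1 library left out. No paired analysis was possible because the ko and wild-type libraries share no replicate numbers. Opposite-strand counts and Hist2h2be have too few counts to show small differences, and reads shared between copies are missing from all values.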
